A study of Caenorhabditis elegans with 4 samples.

Results

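The X chromosome of Caenorhabditis elegans embryos carried 701 of the 5502 LIN-13 peaks in a combined ChIP-seq peak list, taken as all rows whose chromosome is X. Chromatin immunoprecipitation sequencing (ChIP-seq) recovers the DNA bound by a protein and compares it with input, the sonicated chromatin before precipitation. The 2 LIN-13 ChIP libraries and the 2 input libraries all came from hermaphrodite embryos of strain OP51, grown at 20 °C. Every one of them has the unc-119 (ed3) III background and the transgene wgIs73, in which lin-13 is fused to TY1, EGFP and FLAG beside a working unc-119 (+). It was introduced by bombardment, so the protein followed is a tagged copy and the precipitation used a goat antibody against GFP. No library of an untagged strain was analysed here. The authors gave both replicates as 1 list, so the spread between replicates is unknown, no test was made, and intervals cover counting error only. Neighbouring peaks are not independent, which makes those intervals too narrow. The numbers of reads per library are unknown from the list.

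LIN-13 has zinc fingers and belongs to the class B synthetic multivulva genes. Together with LIN-35, the worm's Rb protein, these keep developmental genes in check, and LIN-13 has been linked to the heterochromatin protein HPL-2. In worms, heterochromatin marks and repeats concentrate on the arms of the autosomes, while the contrast between arms and centre is weaker on X. In hermaphrodites both X chromosomes are bound by the dosage compensation complex, which lowers their transcription. Peaks were not assigned to genes, because the coordinates are those of WormBase WS180 and no annotation of that build was used here.

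LIN-13 peaks were sparse on X. X had 39.7 peaks per Mb (exact Poisson 95% interval 36.8 to 42.7), against 58.3 per Mb on the 5 autosomes (56.6 to 60.0), a ratio of 0.68. It held 12.7% of the peaks (exact binomial 95% interval 11.9 to 13.7) on 17.7% of the spanned length, where length runs to the end of the last peak of each chromosome. Its density came closest to that of chromosome III, at 41.4 per Mb (38.1 to 44.9), an interval that overlaps that of X. Chromosomes IV, V, I and II had 46.2, 56.1, 62.7 and 86.03 peaks per Mb.

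Peaks with small q-values were also sparser on X than on the pooled autosomes, but not sparser than on every autosome. A q-value, the authors' p-value adjusted over many regions, ranks the peaks, and a smaller one is called stronger here. A q-value below 1e-05 was reached by 268 X peaks (38.2%) and by 1629 autosomal peaks (33.9%), against 34.5% of the whole list. Below 1e-10 lay 114 X peaks (16.3%) and 652 autosomal peaks (13.6%), against 13.9% of the list. Below 1e-20 lay 35 X peaks (4.99%) and 203 autosomal peaks (4.23%), against 4.33% of the list. These shares on X lie close to the background of the list, and the intervals of X and the autosomes overlap at each limit. At these 3 limits X had 0.767, 0.815 and 0.803 times the autosomal density, beside 0.68 times among all peaks. Its densities were 15.2, 6.45 and 1.98 per Mb. Chromosome V was sparser than X at each limit, with 15.0, 6.08 and 1.63. III had 15.8, 6.61 and 2.47, and II the most, with 29.2, 11.5 and 3.80. Among the 500 smallest q-values 81 were on X (16.2%, interval 13.1 to 19.7), against 116 among the last 1000 of the list (11.6%, interval 9.68 to 13.7). At the very top X held 1 of the first 10 peaks, 5 of the first 50 and 12 of the first 100, close to its share of the whole list.

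Peaks were found along the whole of X. The 17 full windows of 1 Mb held between 26 and 56 peaks, with a median of 39. Going from the left end, the first 6 windows held 36, 39, 56, 39, 43 and 42 peaks. The next 6 held 29, 37, 34, 26, 37 and 42, and the last 5 full windows held 34, 49, 53, 42 and 35. The remaining part of X, from 17000001 to 17676010, held 28. The emptiest full window, from 9000001 to 10000000, lies in the centre, and the fullest, from 2000001 to 3000000, on the left arm.

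**Figure D1:**
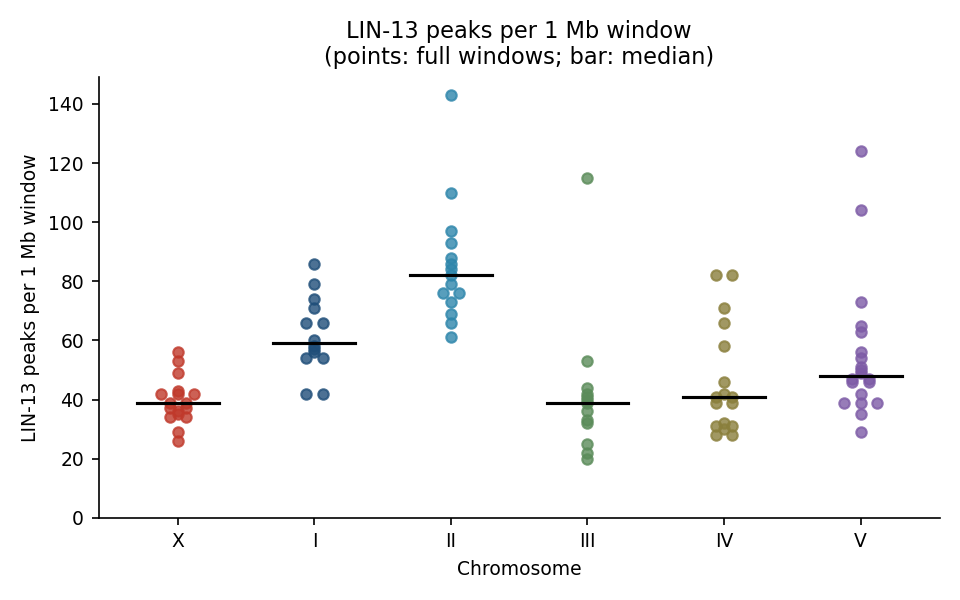
LIN-13 peaks per full 1 Mb window (vertical axis) for X and each autosome (horizontal axis). Each point is a window and each bar the median. Windows on X lie between 26 and 56 peaks, while the fullest windows of II, III and V reach 143, 115 and 124.

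The fullest window held 2.15 times as many peaks as the emptiest on X, against 2.05 times on I, 2.34 on II and up to 5.75 on III. The spread between windows was the lowest on X by the ratio of variance to mean, which grows when peaks pile up in some windows. This ratio was 1.54 on X, against 2.65 on I, 4.80 on II, 7.39 on IV, 9.62 on V and 13.7 on III. It tends to be lower where peaks are fewer, but III, whose density is close to that of X, had the highest value. Without the fullest window of each chromosome, a comparison chosen after seeing the data, the ratio was 1.19 on X and 2.64 on III, while the lowest autosomal value was 2.08. The SD as a share of the mean was 0.197 on X, against 0.207 on I, 0.237 on II and up to 0.573 on III. Without the fullest windows it was 0.176 on X and 0.16 on II, so by this measure, as by the ratio of the fullest to the emptiest window, X was not the most even.

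The cumulative count compares the chromosomes along their whole length. On X the share of peaks passed never departed from the share of length passed by more than 3.53 percentage points, the greatest departure lying at 74.1% of the length. The greatest departure was 4.59 points on II, 5.90 on I, 13.3 on V, 14.5 on III and 16.6 on IV. At a finer scale, 6 of the 176 full windows of 100 kb on X (3.41%) held no peak, against 0 to 12 windows on single autosomes (0% to 5.77%). The fullest 100 kb windows of X held 10 peaks each, 2.53 times its mean, against 2.39 times the mean on I and 7.50 times on III.

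**Figure D2:**
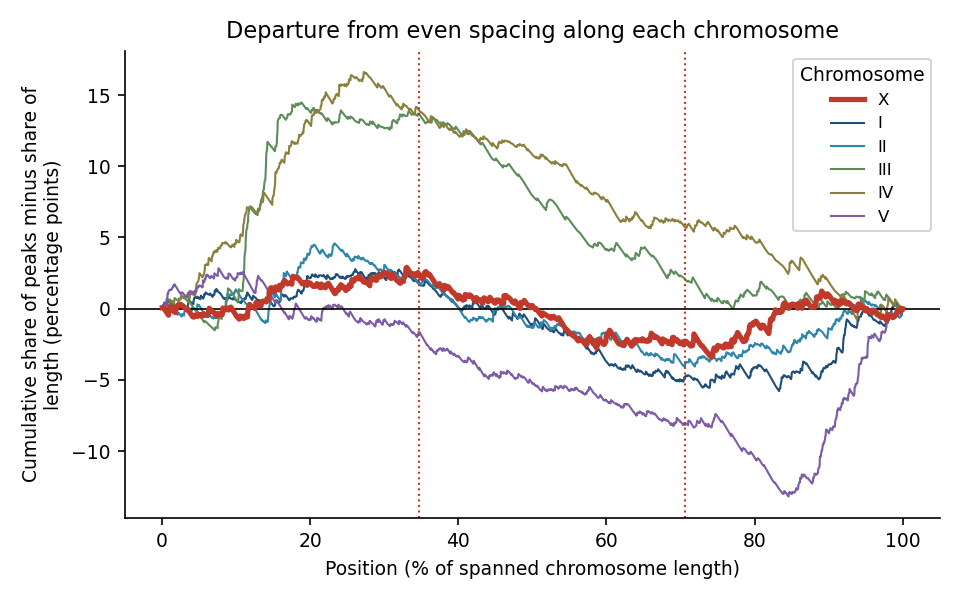
Cumulative share of peaks minus share of length, in percentage points (vertical axis), against position as a percentage of the spanned length (horizontal axis), with 1 line per chromosome. Dotted lines mark the boundaries of the X centre. X stays within 3.53 points of 0, while III, IV and V depart by 13.3 points or more.

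Each of the 4 fullest 100 kb windows of X held at most 1 peak with a q-value below 1e-10. The window from 2000001 to 2100000 had 10 peaks with a median q-value of 3.67e-06, the smallest median of these windows, and 1 of them lay below 1e-10. The window from 2500001 to 2600000 had a median q-value of 0.00107, also with 1 peak below 1e-10. The window from 12600001 to 12700000 had a median of 9.49e-04 and 0 peaks below 1e-10. The window from 14500001 to 14600000 had a median of 0.00258, and 1 of its 10 peaks reached 1.56e-29.

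The centre of X had fewer peaks than its arms. With the boundaries at 6137000 and 12480000, the left arm held 260 peaks, the centre 218 and the right arm 223. These came to 42.4 per Mb on the left arm (exact Poisson 95% interval 37.4 to 47.8), 34.4 in the centre (30.0 to 39.2) and 42.9 on the right arm (37.5 to 48.9). The intervals of the centre and of each arm overlap slightly, and the densities of both arms differ by far less than their intervals. The density of the centre was 0.806 times that of both arms together. The centre held 31.1% of the X peaks (exact binomial 95% interval 27.7 to 34.7) on 35.9% of the length. With the middle 50% of each chromosome as its centre, the ratio of the middle to the outer parts was 0.85 on X, against 0.597 to 0.752 on the autosomes.

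No peak sits on a boundary. The last peak of the left arm spanned 6107329 to 6107632 with a q-value of 0.0021, and the first of the centre 6207612 to 6208036 with 3.33e-17. The last peak of the centre spanned 12458027 to 12458275 with a q-value of 3.67e-06, and the first of the right arm 12480351 to 12480721 with 1.30e-11.

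The centre of X had the lowest density at each q-value limit, but few peaks passed the stricter limits. Below 1e-05 lay 106 peaks on the left arm, 76 in the centre and 86 on the right arm, or 17.3, 11.98 and 16.6 per Mb, so the centre was the sparsest here as among all peaks. These were 40.8%, 34.9% and 38.6% of the peaks of each region, with overlapping intervals. At stricter limits the regions had similar numbers of peaks, too few to show whether the contrast changes with the limit. A q-value below 1e-20 was reached by 12 peaks on the left arm, 12 in the centre and 11 on the right arm, or 1.96, 1.89 and 2.12 per Mb. Below 1e-10 lay 42, 37 and 35 peaks, or 6.84, 5.83 and 6.74 per Mb. These were 16.2%, 17.0% and 15.7% of the peaks of each region. The median q-value was 9.73e-05 on the left arm, 1.63e-04 in the centre and 1.29e-04 on the right arm.

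Gaps between neighbours were longer on X than on the pooled autosomes, and its longest gap was short relative to the mean gap of the chromosome. The median gap, from the end of a peak to the start of the next, was 15473 bp on X (95% interval from order statistics 12628 to 17537), against 7548 bp on the autosomes (7116 to 8059). Chromosome III, at a similar density, had a median gap of 12667 bp (10023 to 14821), an interval that overlaps that of X. The quartiles on X were 4750 and 33951 bp, against 3442 and 33187 bp on III. By region the median gap was 16636 bp on the left arm, 18019 bp in the centre and 12480 bp on the right arm, with overlapping intervals. The mean gap on X was 24804 bp and the longest 6.80 times as long. The longest gap was 9.51 times the mean on III, 10.9 times on II, 12.9 times on I, 15.7 times on IV and 18.4 times on V. The SD of the gaps divided by their mean was 1.15 on X and 1.26 to 1.55 on the autosomes.

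**Figure D3:**
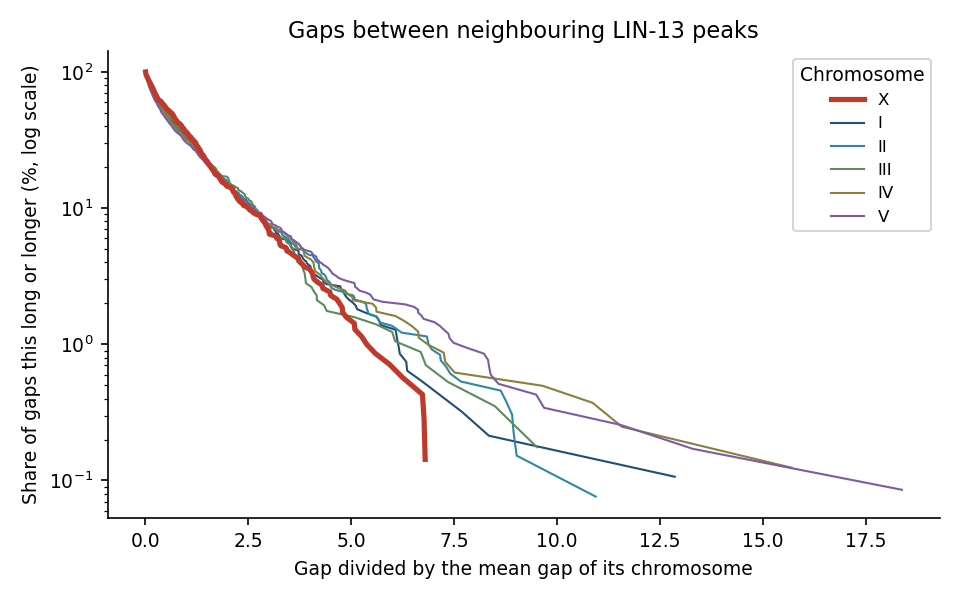
Share of gaps at least as long as a given length (vertical axis, %, log scale), with each gap divided by the mean gap of its chromosome (horizontal axis). The line of X ends at 6.80, before that of every autosome.

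The 5 longest gaps of X were of similar length and fell in all 3 regions. The longest ran from 9468336 to 9636915 in the centre and measured 168580 bp. Its left flank was a peak at 9467573 to 9468335 (q-value 6.16e-09), and its right flank a peak of 1049 bp at 9636916 to 9637964 with 2.87e-12. The second, also in the centre, ran from 10204600 to 10372488 (167889 bp), between a peak at 10204169 to 10204599 (q-value 3.07e-04) and a peak at 10372489 to 10372870 with 6.20e-05. The window with the fewest peaks holds the first of these gaps.

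On the right arm a gap of 166948 bp ran from 12693727 to 12860674. It began at an 88 bp peak at 12693639 to 12693726 (q-value 0.00745) and ended at a peak at 12860675 to 12860946 with 7.51e-07. That weak peak also closes the 100 kb window from 12600001 to 12700000, so one of the fullest windows and a long gap adjoin there. The left arm had the other two. A gap of 154919 bp ran from 3970350 to 4125268, between a peak at 3969893 to 3970349 (q-value 6.45e-16) and a peak at 4125269 to 4125488 with 0.00465. A gap of 147013 bp ran from 1644241 to 1791253, between a peak at 1643492 to 1644240 (q-value 6.58e-07) and a peak at 1791254 to 1791428 with 0.00798. In all, 23 gaps of 100 kb or more made up 16.4% of X, 8 of them starting on the left arm, 9 in the centre and 6 on the right arm. On the autosomes 64 such gaps made up 11.4% of the length, but the share was 17.6% on IV and 16.9% on V, against 2.80% on II, so X lay within the autosomal range.

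Close neighbours were few on X. A midpoint within 2 kb of another was found for 134 X peaks (19.1%, interval 16.3 to 22.2), against 1668 autosomal peaks (34.7%, interval 33.4 to 36.1). Chromosome III, at a similar density, had 23.7% (20.3 to 27.4), and II the most, with 42.2%. Density enters this share directly. The median distance to the nearest midpoint was 6057 bp on X, or 24.0% of its mean spacing, and this percentage lay between 18.1% and 24.2% on the autosomes, so X stood at the upper end of the autosomal range on that scale. Within X the percentage was 27.7% on the left arm, 18.7% in the centre and 25.3% on the right arm.

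Joined wherever the gap was under 2 kb, the X peaks formed 609 groups, of which 535 were single peaks and 60 were pairs. Peaks standing alone made up 76.3% of the X peaks, against 53.7% on II, which had the fewest, and 72.6% on III. On X 14 groups had 3 or more members, against 16 on III and 70 on II. The largest group had 5 members on X, as on I and IV, against 8 on III and V and 12 on II. The group of 5 spanned 8155560 to 8160373 in the centre, with q-values of 2.01e-16, 0.006, 9.53e-26, 7.67e-15 and 3.40e-04 from left to right. Its middle peak, at 8157072 to 8157429, was 358 bp wide and ranked 135 in the list. Strong and weak calls thus lie side by side within 4814 bp. A group of 4 at 2549307 to 2554114 had no q-value under 5.88e-08, and a group of 4 at 15274906 to 15281441 was led by a 1140 bp peak with 1.94e-21.

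The closest pair of neighbours on X lay 203 bp apart. These were 12691635 to 12692800 (q-value 0.00246) and 12693004 to 12693388 (3.48e-04). The next lay 207 bp apart at 5243470 to 5243806 and 5244014 to 5244362, with q-values of 0.00143 and 6.05e-13. Peaks with a neighbour within 2 kb were no stronger than the others. Of the 134, 14.2% had a q-value below 1e-10, against 16.8% of the 567 without such a neighbour.

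X peaks were wide, and narrow peaks were scarce among them. The median width was 374 bp on X (95% interval 354 to 390), against 293 bp on the autosomes (288 to 298). The quartiles were 282 and 521 bp on X, against 195 and 416 bp on the autosomes. Among the autosomes the medians ran from 263 bp on II to 320 bp on IV (310 to 333), so the interval of X lay above that of each autosome. Peaks under 100 bp numbered 19 on X (2.71%, interval 1.64 to 4.20) and 471 on the autosomes (9.81%, interval 8.98 to 10.7). Chromosome III had 5.96% (4.17 to 8.24), an interval that barely overlaps that of X. Peaks of 100 to 199 bp made up 5.71% on X and 16.6% on the autosomes, and those of 400 to 499 bp 15.5% and 9.83%. Peaks of 500 to 699 bp made up 16.4% on X and 9.41% on the autosomes, and those of 700 to 999 bp 8.13% and 5.37%. At 1 kb or more there were 24 peaks on X (3.42%) and 124 on the autosomes (2.58%). That share was 5.20% on IV and 3.16% on III, so X did not have the highest.

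Leaving out the peaks under 100 bp kept the order of the medians. The median of the remaining 682 X peaks was 379 bp (361 to 393), against 310 bp (305 to 315) for the remaining 4330 autosomal peaks. The ratio of geometric mean widths was 1.44 with all peaks and 1.22 without those under 100 bp, while the ratio of medians was 1.28 and 1.22. X peaks covered 1.71% of X, against 2.01% on the autosomes, a ratio of 0.849 and so nearer to 1 than that of peak numbers. Single autosomes ran from 1.57% on III to 2.64% on II, so X lay within their range.

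**Figure D4:**
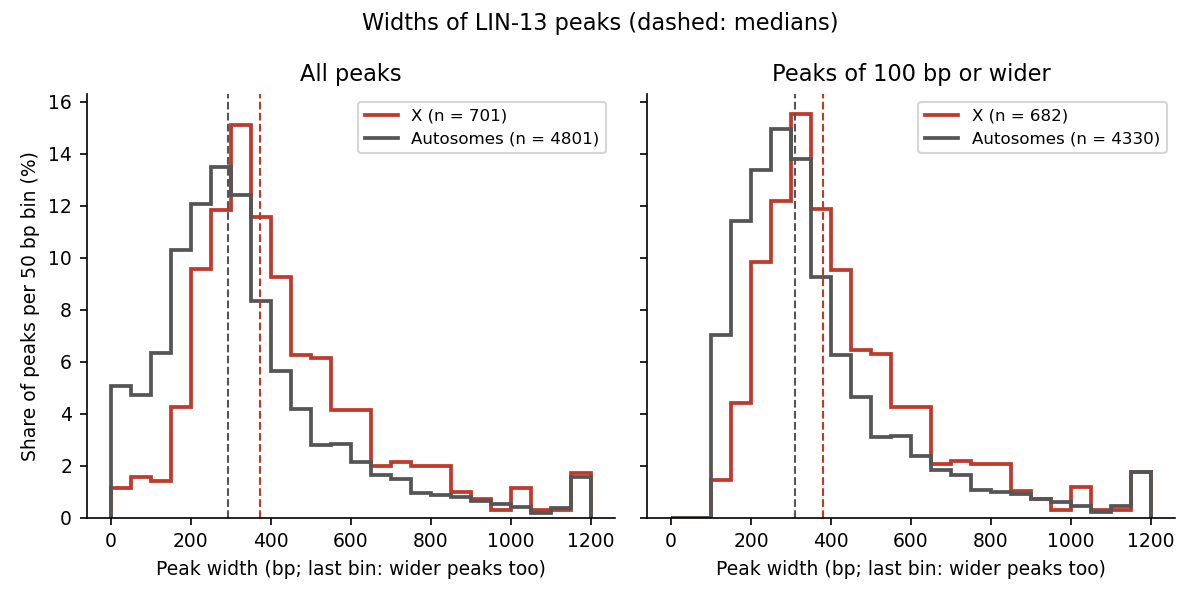
Share of peaks (vertical axis, %) by width in 50 bp bins (horizontal axis, the last bin also holding all wider peaks) on X and on the autosomes, for all peaks and for those of 100 bp or wider. Dashed lines are medians, at 374 and 293 bp on the left and 379 and 310 bp on the right. X is lower in the bins below 300 bp and higher between 300 and 500 bp.

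Within X the centre had the largest median width, although the widest single peaks lay on the arms. The median was 352.5 bp on the left arm (335 to 391), 409 bp in the centre (382 to 442) and 347 bp on the right arm (323 to 382). The intervals of the centre and the left arm overlap, while those of the centre and the right arm meet at 382 bp. Without the peaks under 100 bp the medians were 369, 414 and 353 bp. Such narrow peaks numbered 9 on the left arm (3.46% of its peaks), 3 in the centre (1.38%) and 7 on the right arm (3.14%). The 24 peaks of 1 kb or more, which are the widest binding regions of this chromosome, numbered 7, 10 and 7. These were 2.69%, 4.59% and 3.14% of the peaks of each region. Of the 24, 16 (66.7%) had a q-value below 1e-10, against 16.3% of all X peaks. Among the 124 autosomal peaks of 1 kb or more the share was similar, at 62.9%.

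The 19 peaks under 100 bp were all weak, with q-values between 0.00114 and 0.00948. Their q-values imply only 29 to 49 reads each, as described below, which leaves little room for a small q-value. This was not particular to X, since 0 of the 471 autosomal peaks under 100 bp had a q-value below 1e-10. The narrowest X peak was 3 bp long, at 15668229 to 15668231 on the right arm, with a q-value of 0.00832. Peaks of 5 bp at 13734681 to 13734685 and 9 bp at 14008282 to 14008290, also on the right arm, had q-values of 0.00619 and 0.00578. The 5 bp peak borders a gap of 138559 bp.

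The strongest X site lay in the centre, at 11605071 to 11606553, and was 1483 bp wide. Its q-value of 9.29e-79 was the 4th smallest of the list, behind the strongest peaks of II (14249144 to 14251947, 6.19e-125), IV (14032433 to 14035008, 1.79e-103) and I (9988512 to 9989442, 4.94e-95). The strongest peaks of III (3867377 to 3867750) and V (10341768 to 10342705) ranked 6 and 18. The next X peak ranked 23, so a wide step separates the strongest X site from the rest of its chromosome.

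That second site lay on the right arm at 16929358 to 16930523 (q-value 1.59e-49) and was 1166 bp wide. The third, at 15840982 to 15841617 on the right arm, was 636 bp wide and had 3.66e-44. The centre held the fourth, at 11030886 to 11032156 with 7.32e-43, and the sixth, at 10568285 to 10569296 with 2.14e-38. The fifth, eighth and ninth lay on the right arm, namely 16612073 to 16612926 (4.97e-40), 13143892 to 13145607 (3.06e-34) and 13700592 to 13701047 (2.58e-31). The left arm's strongest, at 4960962 to 4963170 with 6.64e-36, was the seventh and, at 2209 bp, also the widest X peak. The tenth, at 6090579 to 6092743 on the left arm, was the second widest, with 2165 bp, and reached 2.66e-30. The next site of the left arm was at 5840751 to 5841473, with 3.49e-30 and a width of 723 bp.

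Thus 2 of the 10 strongest X sites lay on the left arm, 3 in the centre and 5 on the right arm. These regions held 37.1%, 31.1% and 31.8% of all X peaks, and 12, 12 and 11 of those below 1e-20. With only 10 sites, the split does not show a preference for a region. The median width of the 10 strongest was 1219 bp, against 374 bp for all X peaks, but the ninth was only 456 bp wide. A q-value depends on reads counted over the peak, which grow with width. The larger widths are therefore no result separate from the choice by q-value. Of the 10, 4 had another midpoint within 2 kb, against 19.1% of all X peaks and 16.7% of the 114 with a q-value below 1e-10. The 10 are too few to show a difference. The other widest X peaks were the eighth strongest, with 1716 bp, a peak of 1527 bp at 12171292 to 12172818 (q-value 3.78e-24), and the strongest X site itself.

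The q-values also imply read numbers. In the order of the list, each q-value times its place equals 26301 times the lower tail of a fair binomial distribution for whole read numbers, within 1e-11 on the natural log scale. All 5502 peaks matched, and 0 did with 26300 or 26302 in its place. A single pair of numbers resulted for each of the 701 X peaks. The larger is read here as ChIP reads and the smaller as input reads scaled by the caller. How the input was scaled, and whether equally on every chromosome, is not given in the sources used here, so a ratio of X to the autosomes cannot be told apart from a difference in scaling.

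X peaks rested on more reads and had lower ratios than the pooled autosomal peaks. The median X peak had 97 ChIP and 41 input reads, against 69 ChIP and 26 input reads for the median autosomal peak. Chromosome III came close to X, with medians of 93 ChIP and 37 input reads. The median ratio of ChIP to input was 2.31 on X (95% interval 2.26 to 2.37) and 2.69 on the autosomes (2.67 to 2.72), and the lowest autosomal median was 2.44 on III (2.38 to 2.57). The quartiles on X were 1.97 and 2.88. Ratios of 5 or more belonged to 13 X peaks (1.85%), against 340 autosomal peaks (7.08%). A ratio under 2 was found for 185 X peaks (26.4%) and 615 autosomal peaks (12.8%), but for 23.0% of the peaks on III. Per kb of peak, the median was 252 ChIP reads on X, within the 229 to 278 of single autosomes, and 108 input reads on X, against 86.3 to 118 on single autosomes.

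The q-value limit admits peaks of few reads only at high ratios, so peaks were also set side by side at like read totals. The X median ratio was the lower in 6 of 6 bins of total reads. With 20 to 49 reads it was 3.00 on X and 3.43 on the autosomes, and with 150 to 199 reads 2.09 and 2.52. Among peaks with 100 to 199 reads it was 2.15 for 365 X peaks (2.06 to 2.23) and 2.43 for 1746 autosomal peaks (2.37 to 2.51). In that class III had 2.27 (2.11 to 2.40), whose interval overlaps that of X. Within these bins the order of the widths was mixed. The median width on X was the smaller in 4 of 6 bins, for example 330.5 bp on X and 351 bp on the autosomes with 100 to 149 reads. It was the larger in the 2 lowest bins, with 81 and 78 bp at 20 to 49 reads and 236 and 226 bp at 50 to 99. Over the class of 100 to 199 reads it was 380 bp on X and 377 bp on the autosomes. Reads are counted over the peak, so totals grow with width, and these bins do not bear on the width difference between all X and all autosomal peaks. Peaks under 100 reads made up 25.1% of those on X and 51.6% of those on the autosomes.

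**Figure D5:**
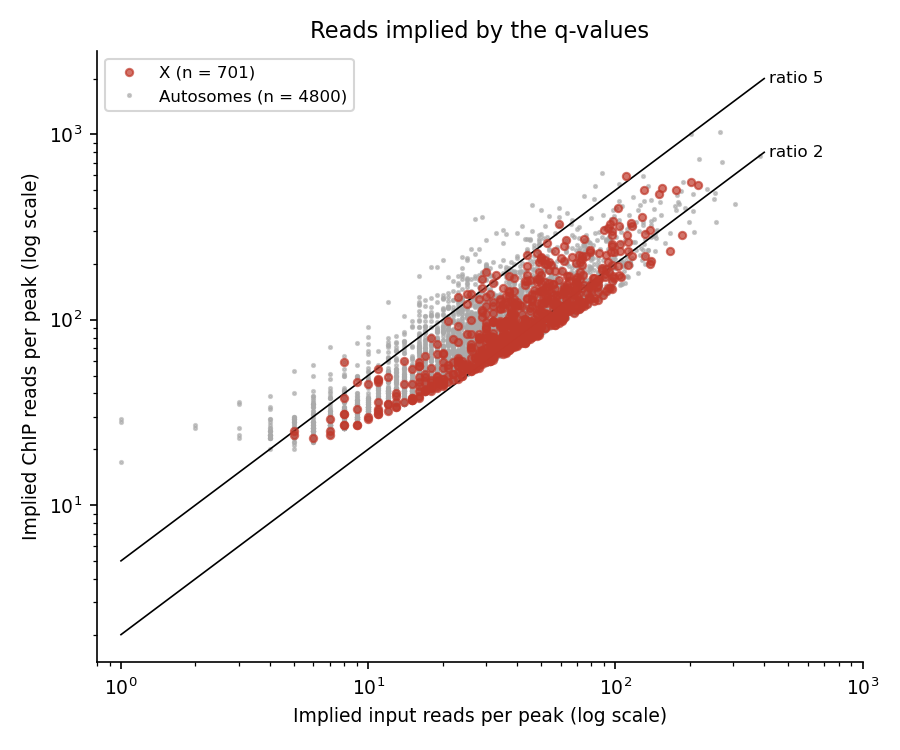
ChIP reads (vertical axis, log scale) against input reads (horizontal axis, log scale) implied by the q-value of each peak, for X and the autosomes. Lines mark ratios of 2 and 5. On or above the line for 5 lie 13 X peaks, and the lower edge of the points is set by the q-value limit.

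By region the median ratio was 2.32 on the left arm (2.25 to 2.44), 2.20 in the centre (2.10 to 2.31) and 2.39 on the right arm (2.29 to 2.53). The intervals of the centre and of each arm overlap. The left arm held 8 of the 13 X peaks with a ratio of 5 or more (3.08% of its peaks), the centre 4 (1.83%) and the right arm 1 (0.448%). Over all of X the share was 1.85%, and the regions held 37.1%, 31.1% and 31.8% of all X peaks. So few peaks do not show a preference for a region. The strongest X site had 599 ChIP and 110 input reads, a ratio of 5.45. The second had 503 and 131 reads and the third 330 and 59, or ratios of 3.84 and 5.59. The widest X peak had 551 and 202 reads, a ratio of only 2.73. The 3 bp peak had 24 ChIP and 7 input reads.

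Among X peaks with at least 100 reads in all, the highest ratio was 6.07, at the 358 bp peak in the group of 5 in the centre, with 182 ChIP and 30 input reads. Next came peaks of 317 and 378 bp on the left arm. They lay at 3099872 to 3100188 with 132 and 23 reads (ratio 5.74) and at 806509 to 806886 with 166 and 29 reads (ratio 5.72). The lowest X ratio was 1.41, at a 1347 bp peak at 14559610 to 14560956 on the right arm, with 236 and 167 reads and a q-value of 0.00232. These peaks were picked after their values were seen.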

How the data were processed

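The labels name 2 ChIP and 2 input libraries, and the authors deposited 1 combined list of 5502 peaks. Peaks were called with PeakSeq on WormBase WS180, per the file headers and source column, and the deposited value of each peak is a q-value, that is an adjusted p-value. Aligner, versions and filters are all not stated in those labels or headers, and the depth per sample is unknown. Width is end minus start plus 1. Region boundaries were applied to midpoints. The reads were reconstructed as described with the results, and the code was tested on simulated data. Shares carry exact binomial (Clopper-Pearson), densities exact Poisson and medians order-statistic 95% intervals. No test was run. Named X peaks are the 10 strongest, the 3 strongest per region, the 5 widest, the 3 narrowest, the flanks of the 5 longest gaps, the fullest 100 kb windows and the closest neighbours, plus the strongest peak of each autosome. Members, lists and this rule were chosen with earlier results of these data known. No sequence of this build was used. Alternatives are given in the closing section. Python 3.11.15, numpy 2.4.6, scipy 1.17.1, pandas 2.3.3 and matplotlib 3.10.9 were used.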

Additional observations from a re-analysis of the deposited data

How the results depend on the processing

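Of 39 values under alternatives to 9 results, 25 stayed within the counting interval of the value reported, or within 1.5 times it for the number of long gaps and the window ratio, and 14 moved. The share of all peaks on X, 12.7%, was 14.1% below a q-value of 1e-05, 14.9% below 1e-10, 14.2% with peaks closer than 2000 bp merged and 15.4% in covered base pairs. All stay under the 17.7% of length. The centre share of X peaks, 31.1%, was 45.9% with the middle 50% as centre, by construction of a wider centre. Keeping q-values below 1e-05 leaves fewer peaks. The share with a neighbour within 2 kb then fell to 6.34% on X, against 13.9% on the autosomes, the median width was 445 bp against 387 bp, the median gap 43378 bp against 27815 bp, and long gaps numbered 62. Merging at 500 bp removes close neighbours by construction and gave 11.1% on X, against 24.4%. The median ratio on X was 2.23 with at least 100 reads and 2.22 if the binomial tail excludes the observed number, an alternative chosen after seeing the data. The autosomal medians were then 2.49 and 2.52. The window ratio on X was 0.965 in windows of 500 kb and 0.991 in windows shifted by 500 kb, against lowest autosomal values of 2.38 and 2.57. No paired analysis was possible because the list pools the replicates, and for that reason none could be left out. A region outside the list only failed the limit of 0.01 at an unknown depth, so binding there was not excluded.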
